A study of Arabidopsis thaliana with 28 samples.

Results

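Roots of Arabidopsis thaliana Col-0 were compared at 0.5 h and at 0.25 h of a drying time course, using the 2 root arrays labelled 0.5 h and the 2 root arrays labelled 0.25 h. These are 4 of the 28 ATH1 arrays of a series that followed shoots and roots at 7 times from 0.25 to 24 h, each time with 2 arrays of either tissue. All groups share the same treatment: per the labels, plants grown on Murashige and Skoog medium (stock code N1092, 16 h days, 24 °C, 50% humidity) were put at day 16, 3 h into the light, in a dry air stream for 15 min until they had lost 10% of their fresh weight, and then stood in closed vessels. The comparison is therefore between dried roots at 2 times, with no untreated roots on either side, and drying, handling and time of day cannot be told apart in it. The labels do not say whether the times count from the start or the end of the air stream, and they do not state that replicate arrays stem from different cultures. The p-values therefore speak only to the spread between replicate arrays of this series, part or all of which may be technical.

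Roots sense water loss and touch within minutes, through calcium, reactive oxygen and hormone signals that switch on early transcripts, and abscisic acid and jasmonate carry much of the slower response. Jasmonate is made from a fatty acid by a chain of enzymes that includes the ligase OPCL1, and it is removed by a small family of oxidases whose genes are themselves induced by it. Roots of the Brassicaceae also hold glucosinolates, sulfur-rich defence compounds that are built from amino acids, loaded into cells by the carriers GTR1 and GTR2, and supplied with sulfate through ATP sulfurylase.

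Between 0.25 h and 0.5 h, 388 of 18190 tested probe sets were higher and 487 were lower at an adjusted p under 0.05, where a probe set is the group of probes that measures 1 transcript. The 875 probe sets called are 4.81% of those tested, 2.13% higher and 2.68% lower. Changes are given as log2 changes of the signal ± the standard error (SE) of limma's fit, for n = 2 arrays in each group. Every adjusted p was obtained with Benjamini-Hochberg's method across all 18190 probe sets. Large changes were more often rises: 202 of the risen and 125 of the fallen probe sets changed by at least 1 log2 unit, and 54 and 11 by at least 2. The median size of a called change was 0.85, and the median over all tested probe sets was -0.06. At an unadjusted p under 0.05 there were 3423 probe sets. The signals of the 2 groups did not overlap in 55.2% of the tested probe sets, so a lack of overlap alone is not read as a change. All 875 called probe sets were without overlap, so where it is stated below for a called gene it adds nothing to the call. With 2 arrays against 2, an exact permutation test of a single gene cannot go below p = 0.33, and the calls rest on limma, which takes its estimate of the spread from all 14 groups. The count of calls fell to 135 without replicate 2 of 0.5 h, 191 without replicate 1 of 0.25 h, 377 without replicate 1 of 0.5 h and 535 without replicate 2 of 0.25 h.

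**Figure D1:**
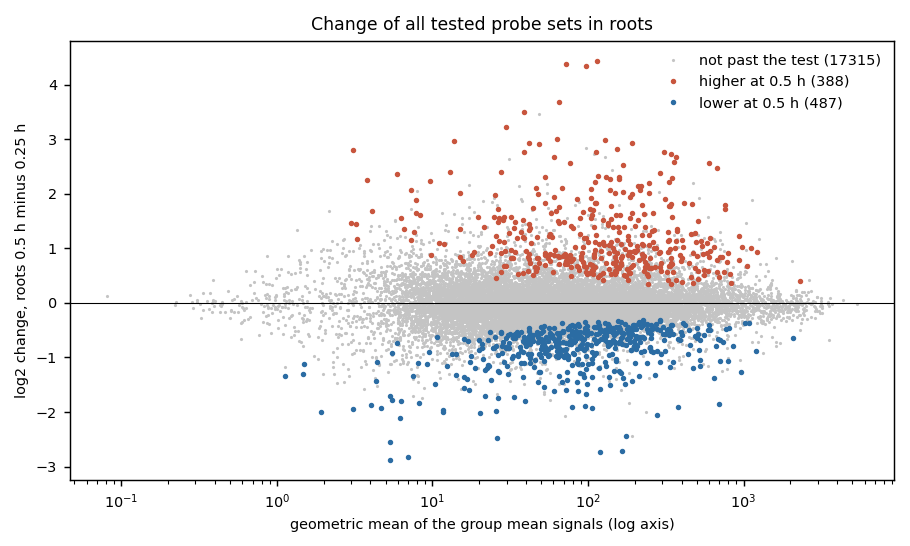
Log2 change in roots from 0.25 h to 0.5 h (vertical axis) against the geometric mean of the group mean signals (horizontal axis, log scale), 1 point for each of the 18190 tested probe sets. Red points are the 388 called higher and blue points the 487 called lower, and the rises reach 4.44 while the falls reach -2.87.

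The 4 arrays were alike in brightness, with median signals from 43.1 to 46.7, and replicates correlated across probe sets at r = 0.982 (0.25 h) and 0.985 (0.5 h), against 0.957 to 0.969 between the times. The tissue label was checked with 3 root marker genes, EXPA7, EXPA18 and AT5G10130, which were all brighter in root than in shoot arrays: their summed signal was 189 to 239.9 at 0.25 h and 328 to 365 at 0.5 h, against at most 37.0 on shoot arrays of those times. Of 8 nuclear photosynthesis genes, which mark green tissue, none was brighter in roots. Their summed signal was 577 to 673 at 0.25 h and 427 to 467 at 0.5 h in roots, against 29712 to 34213 in shoots. The sums of both marker lists thus differed between the 2 root times without overlap, although no member of either list passed the test, and their part in the results was not tested. In bulk tissue, fewer cells of a type and less RNA per cell cannot be told apart. The shoot arrays used for comparison stand apart from their labels. Each one labelled 0.5 h or 1 h correlated better with an array of the other time (r = 0.982) than with its own replicate. Replicates there had r = 0.953 at 0.5 h and 0.955 at 1 h, and shoot values at 0.5 h are to be read with that. These shoot pairs also enter the spread behind the root calls, which was taken from all 14 groups.

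The largest rise among probe sets with 1 named gene was that of AT5G19110, which encodes a protein of the aspartyl protease family. Its signal was 16.6 and 24.3 on the 0.25 h arrays and 367 and 548 on the 0.5 h arrays, a log2 change of 4.35 ± 0.64 (adjusted p = 0.000626) and a 22.4-fold ratio of the mean signals. The 2 groups were far apart. AT5G19100, the gene next to it in the TAIR10.1 annotation and of the same protease family, went from 23.7 and 40.5 to 115 and 173, a change of 2.11 ± 0.29 (adjusted p = 0.000336). The 2 neighbours therefore rose together, without overlap between the times. The subtilisin-like protease gene AT1G32970 rose from 10.1 and 11.3 to 127 and 156, by 3.50 ± 0.65 (adjusted p = 0.00511).

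The 12 largest rises also held 2 genes of leucine-rich repeat proteins, a structure common among receptors and defence proteins. AT2G34930 was at 16.7 and 17.5 at 0.25 h and at 214 and 277 at 0.5 h, a change of 3.69 ± 0.83 (adjusted p = 0.0152). AT2G26380 was at 11.8 and 16.2 and then at 86.6 and 129, a change of 2.77 ± 0.60 (adjusted p = 0.0127). Both were dim at 0.25 h, and bright on both later arrays.

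Both carriers of glucosinolates rose. GTR1 went from 116 and 119 to 752 and 871, a change of 2.76 ± 0.33 (adjusted p = 0.000123) and a 6.91-fold ratio. GTR2, its close relative, went from 331 and 292 to 739.9 and 781, a change of 1.29 ± 0.19 (adjusted p = 0.000681). These were the only 2 of the 15 tested genes on the list of mineral nutrient transporters to pass the test. The list holds only part of the nitrate and peptide transporter family to which GTR1 and GTR2 belong, and members outside it were not counted. The list had a median change of 0.44 (0.17 without replicate 1 of 0.25 h, 0.19 with a pseudocount of 13.4 and 0.12 with the filter at the array median), against -0.07 over all 10017 tested genes with 1 probe set each, of which 4.46% were called, 1.98% higher and 2.49% lower. The remaining genes on the list lay between -0.63 (AT2G26690) and 0.98 (AT3G25260). Both carriers passed the test under each of the 16 alternatives run, leave-one-out fits included.

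APS3 and UGT74B1 are described here for their known roles, with no list of sulfur genes behind them. APS3, an ATP sulfurylase that starts sulfate assimilation, went from 66.8 and 76.9 to 335 and 369.6, a change of 2.26 ± 0.21 (adjusted p = 1.57e-05). UGT74B1, the glucosyltransferase that makes desulfoglucosinolates, went from 483 and 418 to 817 and 794, a change of 0.84 ± 0.16 (adjusted p = 0.00674). APS3 is among the 12 largest rises, and its replicates were close at both times. Of the 6 tested genes on the list of glucosinolate and phenylpropanoid enzymes, none passed the test, and the median was -0.22. The lignin enzyme gene CCR2 had the highest change there, 1.36 ± 0.62 (adjusted p = 0.239), and FMO the lowest, -0.66 ± 0.30 (adjusted p = 0.234).

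Other large rises covered transport, proline breakdown and the cell surface. AT5G38710, a proline dehydrogenase that breaks down the osmolyte proline, went from 23.5 and 38.2 to 164 and 215, a change of 2.57 ± 0.26 (adjusted p = 2.61e-05). It was the only 1 of 6 tested genes on the list of starvation and branched-chain amino acid breakdown to pass the test, and the list's median was -0.03. AT4G22610, of the lipid transfer protein family, went from 124 and 166 to 876 and 995, a change of 2.68 ± 0.35 (adjusted p = 0.000267). AT1G26730, of the EXS family that includes the phosphate exporter PHO1, went from 69.1 and 70.2 to 404 and 418, by 2.53 ± 0.49 (adjusted p = 0.00633). In each of these 3 genes both 0.5 h arrays lay well above both 0.25 h arrays. AT2G36650 went from 55.6 and 80.8 to 447 and 621, by 2.94 ± 0.55 (adjusted p = 0.00518). AT5G38910, a germin-like cell wall protein, was the least even of the 12, at 68.2 and 50.2 and then 182 and 466, a change of 2.28 ± 0.58 (adjusted p = 0.0293). Its 0.5 h arrays differed more from each other than its 0.25 h arrays did, and its change without replicate 2 of 0.5 h was 1.61 (adjusted p = 0.342).

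**Figure D2:**
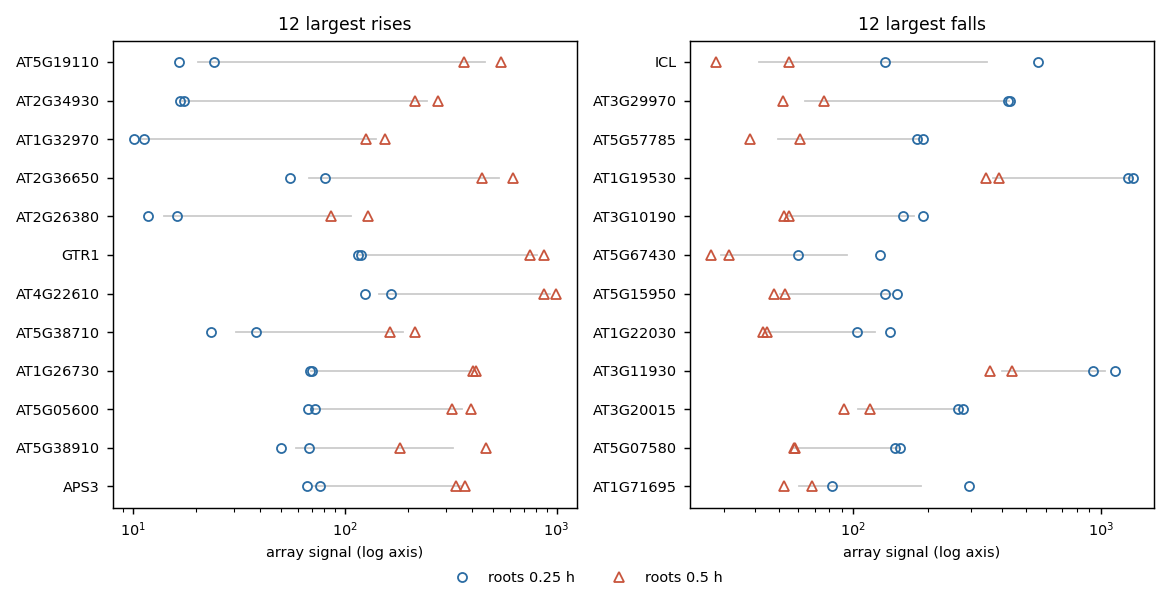
Array signals (log axis) of the 12 largest rises (left) and the 12 largest falls (right) among called probe sets with 1 named gene and a mean signal of at least 50 in the brighter group. Blue circles are the 2 root arrays of 0.25 h, red triangles the 2 of 0.5 h, and grey lines join the group means. The rule that picked the genes requires that the 2 times do not overlap. ICL and AT1G71695 have the widest gap between their 0.25 h arrays.

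Of the 12 largest rises, 5 passed the test under all 16 alternatives (AT5G19110, GTR1, AT4G22610, AT5G38710 and APS3). The other calls were lost only when an array was left out, except that of AT5G38910, which was also lost without a pseudocount and with only the 14 root arrays in the fit. The direction was the same in all 12 under every alternative.

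On the list of jasmonate synthesis and response, 3 of the 7 tested genes rose and none fell, against 1.98% of all tested genes risen. The median of the list was 1.84 against -0.07 over all tested genes. The list was chosen with earlier results of these data known, so these counts are not independent support. OPCL1, the ligase that activates the precursor for chain shortening, went from 196 and 243 to 788 and 787, a change of 1.84 ± 0.49 (adjusted p = 0.0387). AT5G05600, a jasmonate oxidase that inactivates the hormone, went from 67.3 and 72.9 to 322 and 394, a change of 2.31 ± 0.56 (adjusted p = 0.0232). Both 0.5 h arrays of each gene lay above both 0.25 h arrays by more than the spread between replicates. JRG21, another oxidase of this family, was near the lower end of the signals, at 0.873 and 1.40 and then 11.9 and 13.4, a change of 2.25 ± 0.54 (adjusted p = 0.0216) that was 0.84 (adjusted p = 0.198) with the larger pseudocount. AT2G38240, of the same oxidase family, was at 11.3 and 11.7 and then 30.3 and 70.1, 1.84 ± 0.58 (adjusted p = 0.0757), and did not pass the test.

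The remaining members of the jasmonate list were the dim genes AT3G11180 (0.76), PDF1.2 (0.16) and the jasmonate methyltransferase gene JMT (-0.98), none past the test. All 3 calls were lost in each of the 4 fits that leave out 1 root array, and OPCL1 also lost its call with a constant or robust variance prior. With 1 array left out the list's median ran from 1.26 to 1.86, and with the larger pseudocount it was 0.84. With replicate 1 of 0.25 h left out OPCL1 changed by 1.69 (adjusted p = 0.24) and AT5G05600 by 2.26 (adjusted p = 0.156). The called rises on the list were those of the synthesis gene OPCL1 and of the oxidase genes AT5G05600 and JRG21. In shoots over the same interval OPCL1 changed by 2.80 (adjusted p = 0.00191) and AT5G05600 by 2.12 (adjusted p = 0.0265), and no difference between tissues passed the test for any of the 7 genes.

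The largest falls included those of metabolic enzyme genes and of the low oxygen gene AT1G19530, described below. ICL, the isocitrate lyase of the glyoxylate cycle, went from 559.6 and 135 at 0.25 h to 28.0 and 55.3 at 0.5 h, a fall of 2.74 ± 0.55 (adjusted p = 0.00757). Its 0.25 h arrays differed by more than its 2 groups' nearest arrays did, and without replicate 1 of 0.25 h the change was -1.72 (adjusted p = 0.166). AT3G29970, of the B12D protein family, went from 431 and 421 to 52.0 and 76.2, a fall of 2.72 ± 0.65 (adjusted p = 0.021). AT5G15950, an S-adenosylmethionine decarboxylase of polyamine synthesis, went from 150.3 and 134 to 53.2 and 48.1, a fall of 1.45 ± 0.21 (adjusted p = 0.000621). In AT3G29970 and AT5G15950 the replicates were close at 0.25 h and no array overlapped between the times. AT5G67430, of the GNAT acetyltransferase family, went from 59.8 and 129 to 31.6 and 26.6, a fall of 1.54 ± 0.42 (adjusted p = 0.0429) that was -0.996 (adjusted p = 0.322) without replicate 2 of 0.25 h.

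Other falls were those of signalling and stress protein genes. AT5G57785, for which no role is given here, went from 181 and 191 to 61.1 and 38.3, a fall of 1.90 ± 0.25 (adjusted p = 0.000248). AT3G10190, a calmodulin-like calcium sensor, went from 192 and 159.7 to 55.0 and 52.7, a fall of 1.67 ± 0.26 (adjusted p = 0.000869). AT5G07580, an ethylene response factor, went from 155 and 148 to 58.2 and 57.5, a fall of 1.36 ± 0.36 (adjusted p = 0.0356). All 3 had replicates that differed far less than the times did. AT3G11930, of the universal stress protein family, went from 1146 and 933 to 357 and 439, a fall of 1.38 ± 0.34 (adjusted p = 0.0258). AT1G22030 went from 141 and 103 to 45.1 and 43.2, a fall of 1.41 ± 0.23 (adjusted p = 0.0018). The aspartyl protease gene AT3G20015 went from 278 and 265 to 117 and 91.7, a fall of 1.37 ± 0.21 (adjusted p = 0.000869), against the rise of the protease pair above. The peroxidase gene AT1G71695 rested on 1 array: it was at 295 and 82.3 and then at 52.4 and 68.2, a fall of 1.36 ± 0.36 (adjusted p = 0.0384), and its change was -0.45 (adjusted p = 0.512) without replicate 1 and -2.26 (adjusted p = 0.000265) without replicate 2 of 0.25 h. Of the 12 largest falls, 5 passed under all 16 alternatives (AT5G57785, AT3G10190, AT5G15950, AT1G22030 and AT3G20015), and all 12 kept their direction.

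The listed genes that plants induce under low oxygen were nearly all lower at 0.5 h. This list too was chosen with earlier results of these data known, so its shared direction is not independent support. Of 15 tested members, 14 had a change below 0 and 13 had both 0.5 h arrays below both 0.25 h arrays. The test was passed by 3, against 2.49% of all tested genes called lower. The median was -1.05. Over all tested genes 5940 of 10017 were below 0 and 3464 had both 0.5 h arrays lower. AT1G19530, at 1355 and 1294 and then 345 and 389, fell by 1.85 ± 0.36 (adjusted p = 0.00633). AT3G03270, a universal stress protein gene, went from 1720.2 and 1278 to 539 and 703 and fell by 1.27 ± 0.34 (adjusted p = 0.0377). AT3G27220, of the kelch repeat family, went from 219.9 and 218 to 111 and 96.4 and fell by 1.07 ± 0.29 (adjusted p = 0.0413). All 3 were lower on both later arrays, with no overlap.

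Larger changes on this list missed the threshold, such as AT5G10040, at 475 and 428 and then 72.8 and 91.8, -2.44 ± 0.88 (adjusted p = 0.124), and AT2G17850, at 532 and 418 and then 94.2 and 143, 4.01 times lower in the mean signal (adjusted p = 0.0861). The fermentation gene PDC2, a pyruvate decarboxylase, was at 277 and 431 and then 271 and 283, -0.32 ± 0.39 (adjusted p = 0.731), with overlapping arrays. AT4G10270 was the only member above 0, at 0.49 ± 0.58 (adjusted p = 0.723). With only the 4 arrays of this comparison in the fit, 10 of the 15 passed, and with 1 array left out between 0 and 1 did, while the list's median stayed between -1.06 and -0.95 in those fits. In shoots the same 15 genes had a median change of -0.07 over this interval, none passed there, and none of the 15 differences between tissues passed the test.

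**Figure D3:**
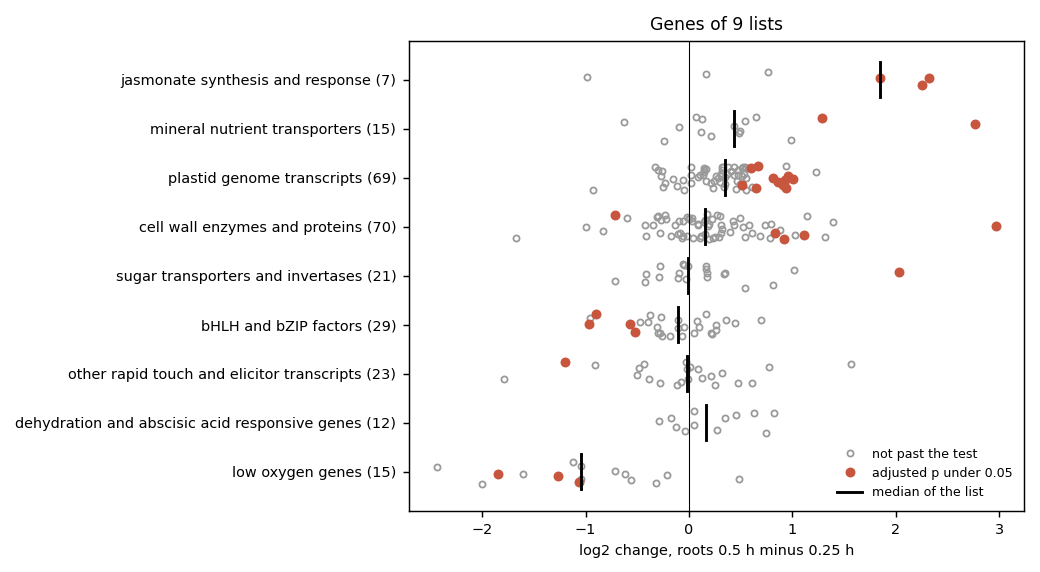
Log2 change in roots from 0.25 h to 0.5 h for the tested genes of 9 lists (number in brackets), 1 point per gene, spread vertically for display. Filled red points passed at an adjusted p under 0.05, open grey points did not, and black bars are the list medians, from -1.05 for low oxygen genes to 1.84 for jasmonate genes.

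Of 69 tested transcripts of the plastid genome, 11 rose (15.9%) and none fell, against 1.98% of all tested genes risen. The median was 0.34, and 58 of 69 (84.1%) were above 0, against 40.7% of all tested genes. The median was 0.19 without replicate 1 and 0.53 without replicate 2 of 0.5 h. ycf4, an assembly factor of photosystem I, went from 215 and 296 to 577 and 449, a rise of 1.01 ± 0.15 (adjusted p = 0.000691). cemA, an envelope membrane protein, went from 168 and 256 to 409 and 391, a rise of 0.94 ± 0.18 (adjusted p = 0.00605). psbC, a core antenna of photosystem II, went from 134 and 158 to 310.3 and 249.6, a rise of 0.93 ± 0.22 (adjusted p = 0.02). rpoB, a subunit of the plastid RNA polymerase, went from 23.5 and 17.9 to 45.1 and 38.8, a rise of 0.96 ± 0.25 (adjusted p = 0.037). Each was higher on both later arrays, and the 0.25 h replicates of cemA were the least even. The summed plastid signal was 16857 to 19613 at 0.25 h and 20511 to 23558 at 0.5 h. Plastid genes are transcribed in long shared units, such as that of ycf4, cemA and petA, so these probe sets are not independent. Of the nuclear photosynthesis genes, 7 of 8 were below 0, the median was -0.51 and none passed the test. PSBY was at -0.75 ± 0.25 (adjusted p = 0.0919) and LHCB4.2 at -0.74 ± 0.34 (adjusted p = 0.244). Mitochondrial genes were not counted as a list, but calls were not confined to the plastid genome. The mitochondrial genes nad9 (1.03, adjusted p = 0.00683) and ccb382 (0.79, adjusted p = 0.0162) also rose. Others, such as nad4 (0.05, adjusted p = 0.903) and nad6 (0.20, adjusted p = 0.664), did not pass. Plastid calls numbered 1 without replicate 1 of 0.25 h, 3 without replicate 1 of 0.5 h, 4 without replicate 2 of 0.5 h and 10 without replicate 2 of 0.25 h.

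Cell wall genes changed in few members. Of 70 tested on the list, 4 rose, 1 fell and the median was 0.15, against 1.98% risen and 2.49% fallen over all tested genes. CSLD2, a synthase of wall polysaccharide in root hairs, went from 319.9 and 356 to 684 and 780.0, a rise of 1.11 ± 0.19 (adjusted p = 0.00252). CSLC04, the glucan synthase of xyloglucan, went from 346 and 338 to 672 and 628, a rise of 0.92 ± 0.26 (adjusted p = 0.0477). GH9B8, of the endoglucanase family, went from 76.0 and 105 to 164 and 158, a rise of 0.83 ± 0.18 (adjusted p = 0.0118). Their ratios of mean signals were 2.17, 1.90 and 1.77, and no arrays overlapped. The pectin methylesterase inhibitor gene AT5G62360 was dim, at 3.46 and 4.81 and then 37.0 and 55.5, a rise of 2.97 ± 0.62 (adjusted p = 0.00934) that was 1.75 (adjusted p = 0.0079) with the larger pseudocount. TBL28, of a family of wall acetyltransferases, went from 99.3 and 79.0 to 62.4 and 45.1, a fall of 0.72 ± 0.19 (adjusted p = 0.0406). Of the wall-loosening families, none of 16 expansins (median 0.17) and none of 8 xyloglucan endotransglucosylases (median 0.24) passed. Their widest values were 1.39 ± 0.41 (adjusted p = 0.0588) for EXLA2, -1.67 ± 0.53 (adjusted p = 0.0785) for EXPA8 and 1.02 ± 0.78 (adjusted p = 0.542) for XTH18. The call of CSLC04 held in 7 of 16 alternatives, and with 1 array left out the list had 0 to 3 rises and 0 to 2 falls.

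On the lists of transcription factors the calls were falls. Of 29 tested bHLH and bZIP factors, 4 fell, none rose and the median was -0.11. Over all tested genes 2.49% fell and 1.98% rose. MYC4, which carries the jasmonate signal with MYC2 and MYC3, went from 88.1 and 89.8 to 53.0 and 41.1, a fall of 0.90 ± 0.16 (adjusted p = 0.00428). MYC3 went from 131 and 145 to 96.8 and 88.4, a fall of 0.57 ± 0.10 (adjusted p = 0.00317). The fall of both MYC genes was small, and both lost the call without replicate 2 of 0.5 h. HYH, the relative of the light-signalling factor HY5, went from 115 and 75.4 to 52.4 and 42.0, a fall of 0.96 ± 0.23 (adjusted p = 0.0232). The bZIP gene AT2G21230 went from 156 and 142 to 95.4 and 111, a fall of 0.52 ± 0.14 (adjusted p = 0.0413). Of the 2 tested genes on the list of ERF and DREB factors, the DREB-type factor tny passed. It went from 119.6 and 92.0 to 47.0 and 34.4, a fall of 1.34 ± 0.31 (adjusted p = 0.018). That list holds only part of its class, and the ethylene response factor AT5G07580, which fell, is not on it. None of 6 WRKY factors (median -0.12), 2 zinc finger factors (median -0.18), 1 NAC factor (NAC014, -0.59) and 1 MYB factor (MYBC1, -0.46) passed. With 1 array left out, 0 to 3 of the bHLH and bZIP factors passed.

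Sugar carriers and conjugating enzymes changed singly. SWEET16, a vacuolar sugar carrier, went from 63.9 and 102 to 355 and 318, a rise of 2.03 ± 0.29 (adjusted p = 0.000499), and was the only 1 of 21 tested sugar transporters and invertases to pass (median -0.01). It passed under all 16 alternatives. Of the 70 tested genes on the list of glutathione transferases, glycosyltransferases and cytochrome P450 enzymes, 3 rose, 2 fell and the median was -0.01. Over all tested genes 1.98% rose and 2.49% fell, and nothing is read from so few calls. The glycosyltransferase gene AT2G16890, which fell in roots, is not on the list. Besides UGT74B1, the rises were UGT76B1, from 300.0 and 238 to 588 and 606 (1.15 ± 0.31, adjusted p = 0.0416), and the flavonol glycosyltransferase UGT78D1, from 24.0 and 21.8 to 32.5 and 43.7 (0.67 ± 0.19, adjusted p = 0.0478). The falls were the flavonoid glucosyltransferase UGT78D2, from 246 and 185 to 133 and 120.5 (-0.75 ± 0.21, adjusted p = 0.0436), and UGT71C4, from 164 and 158 to 99.8 and 112 (-0.60 ± 0.11, adjusted p = 0.00501). Calls near the threshold were lost often: UGT78D1 passed in 6 of 16 alternatives, UGT76B1 in 9 and UGT78D2 in 10. Of the 7 tested genes on the list of peroxidases and root hair genes, AT2G41480 rose, from 209.5 and 373 to 562 and 582 (1.03 ± 0.23, adjusted p = 0.0141). The median was 0.42, and the peroxidase gene AT1G71695, which fell, is not on this list. Without replicate 1 of 0.25 h the change of AT2G41480 was 0.62 (adjusted p = 0.249).

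Among early stress genes, 1 of 23 rapid touch and elicitor transcripts passed the test, with a median of -0.02. That is 4.35% of the list, near the 4.46% called over all tested genes. The gene was AT4G27652, of unstated role, which went from 676 and 754 to 323 and 297, a fall of 1.20 ± 0.34 (adjusted p = 0.0476) that was lost with any 1 of the 4 arrays left out. Of 3 rapid stress transcription factors none passed, and lists this short are not told from the background by such a count. The zinc finger factor STZ was bright at both times, at 1463 and 1408 and then 1262 and 1045 (-0.32 ± 0.35, adjusted p = 0.692). WRKY53 was at 144 and 116 and then 119 and 106 (-0.19 ± 0.34, adjusted p = 0.831). STZ was lower on both later arrays, and the arrays of WRKY53 overlapped between the times. Of 12 dehydration and abscisic acid responsive genes none passed, and the median was 0.16. The dehydrin gene LTI30 had the highest change there, at 1292 and 1143 and then 2044 and 2264 (0.82 ± 0.44, adjusted p = 0.335), followed by the U-box ubiquitin ligase gene PUB19, at 79.2 and 61.4 and then 118 and 118 (0.75 ± 0.27, adjusted p = 0.124). Both genes were higher on both later arrays without passing the test.

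Further lists had no call either. They were 9 heat shock genes (median 0.31, highest AT1G53540 at 0.67 ± 0.60, adjusted p = 0.614), 14 auxin genes (median -0.14, highest LBD29 at 1.05 ± 0.40, adjusted p = 0.147) and 15 calcium signalling genes (median 0.04). In the last list the calmodulin-like gene AT1G76640 was at 55.5 and 44.0 and then 294 and 368, a change of 2.69 ± 0.82 (adjusted p = 0.0674) that missed the threshold, and CML23 was at -1.43 ± 0.57 (adjusted p = 0.169). There was also no call among 12 ubiquitin ligases (median 0.05), 12 secreted signalling peptides (median -0.08), 6 receptor and defence kinases (median -0.12) and 10 cell cycle and histone genes (median -0.29). The same held for 4 clock genes (median 0.06), 2 ethylene genes (median -0.60), 2 cytokinin genes (median 0.02) and 2 suberin and endodermis genes (median 0.03). The ethylene list holds AT1G12010, an ACC oxidase gene whose 0.25 h arrays disagreed, at 1367 and 503 and then 377 and 364 (-1.16 ± 0.38, adjusted p = 0.0869). The linker histone gene HIS1-3 was at 114 and 119 and then 52.4 and 31.2 (-1.48 ± 0.49, adjusted p = 0.0923). In all, 12 of the 34 lists with a tested gene had at least 1 call, a count that depends on how long the lists are. The lists hold only part of their classes, and called genes outside them exist, such as the calcium sensor AT3G10190.

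The root change was set against the shoot change over the same interval, to see which changes differ between the tissues. The test of the difference itself passed for 385 of 18190 probe sets (2.12%), 119 with the root change higher (0.654%) and 266 with it lower (1.46%). Of the 388 probe sets that rose in roots, 91 also rose in shoots (23.5%) and 6 fell there (1.55%), against 5.09% risen and 2.85% fallen in shoots over all tested probe sets. Of the 487 that fell in roots, 37 fell (7.60%) and 14 rose (2.87%) in shoots. A root change above the shoot change was found for 59 of the risen and a root change below it for 74 of the fallen, counts from which nothing is read, since the same root arrays chose these sets. When the 4 shoot arrays labelled 0.5 h or 1 h were joined into 1 group, 611 probe sets passed, and with shoot arrays of 1 h in place of those of 0.5 h, 410 did. The count was 746 without replicate 1 and 366 without replicate 2 of shoot 0.5 h, and 137 without replicate 2 of root 0.5 h.

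Among the largest rises, AT5G38710 had shoot signals of 26.7 and 22.2 at 0.25 h and 19.2 and 28.7 at 0.5 h, and its root change exceeded the shoot change by 2.62 ± 0.37 (adjusted p = 0.000939). GTR1 was at 275 and 229 and then 293 and 531 in shoots, and its difference was 2.12 ± 0.47 (adjusted p = 0.0226). APS3 differed by 1.87 ± 0.30 (adjusted p = 0.00247), with shoot signals of 176 and 189 and then 237 and 244. In all 3 the root signals at 0.5 h lay above the shoot signals of both times. AT5G19100 differed by 2.18 ± 0.41 (adjusted p = 0.00756) and AT4G22610 by 2.12 ± 0.50 (adjusted p = 0.031). AT5G19110, the largest root rise, had shoot signals of 4.52 and 6.96 and then 7.22 and 33.0, and its difference of 3.11 ± 0.90 did not pass (adjusted p = 0.0825). With the joined shoot group the differences of AT5G38710, GTR1, APS3, AT5G19100 and AT4G22610 passed too. With shoot arrays of 1 h in place of 0.5 h that of AT4G22610 had an adjusted p of 0.0519. Of these genes, only AT5G38710 and APS3 kept the difference past the test under every alternative run.

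In the opposite direction, AT2G16890, a glycosyltransferase gene, fell in roots from 114 and 136 to 63.2 and 51.2 and rose in shoots from 2.32 and 1.63 to 13.7 and 16.9, a difference of -3.24 ± 0.42 (adjusted p = 0.000349). AT4G27652 fell in roots by 1.20 ± 0.34 and changed by 1.44 in shoots (adjusted p = 0.0129), a difference of -2.64 ± 0.48 (adjusted p = 0.00598). AT5G47060, of the FLZ zinc finger family, went from 216 and 289 to 101 and 104 in roots, a fall of 1.27 ± 0.30 (adjusted p = 0.0184), and from 45.9 and 31.5 to 72.7 and 105 in shoots, a difference of -2.42 ± 0.42 (adjusted p = 0.00404). These 3 genes moved in opposite directions in the tissues, with both changes past the test in the main fit. None of the 3 root calls was kept under every alternative run. The shoot signals of AT2G16890 were near the lower end of the scale, and its difference ran from -4.10 to -1.87 over the alternatives. AT5G15950 fell in roots while its shoot signals were 582 and 442 and then 621 and 955, a difference of -2.06 ± 0.30 (adjusted p = 0.00116).

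A few named genes that rose in shoots and did not pass in roots differed by the same test. PUB19 went from 32.4 and 32.4 to 774 and 444 in shoots, and its root change was lower by a difference of -3.35 ± 0.38 (adjusted p = 0.000109). BZIP60, which switches on chaperones when unfolded proteins build up, was at 241 and 251 and then 227 and 249 in roots and went from 90.9 and 91.8 to 357 and 376 in shoots, a difference of -2.03 ± 0.19 (adjusted p = 1.38e-05). WRKY53 differed by -2.17 ± 0.48 (adjusted p = 0.0223). Before the shoot rise, at 0.25 h, all 3 genes had higher signals in roots than in shoots. The dehydration list had a median of 1.58 in shoots, with 4 of 12 genes risen and none fallen there, and the rapid touch list a median of 0.94 with 7 of 23 risen and 1 fallen. Over all tested genes 4.09% rose and 2.93% fell in shoots, and the median was -0.04. The difference between tissues passed for 1 member of the dehydration list and 2 of the touch list.

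**Figure D4:**
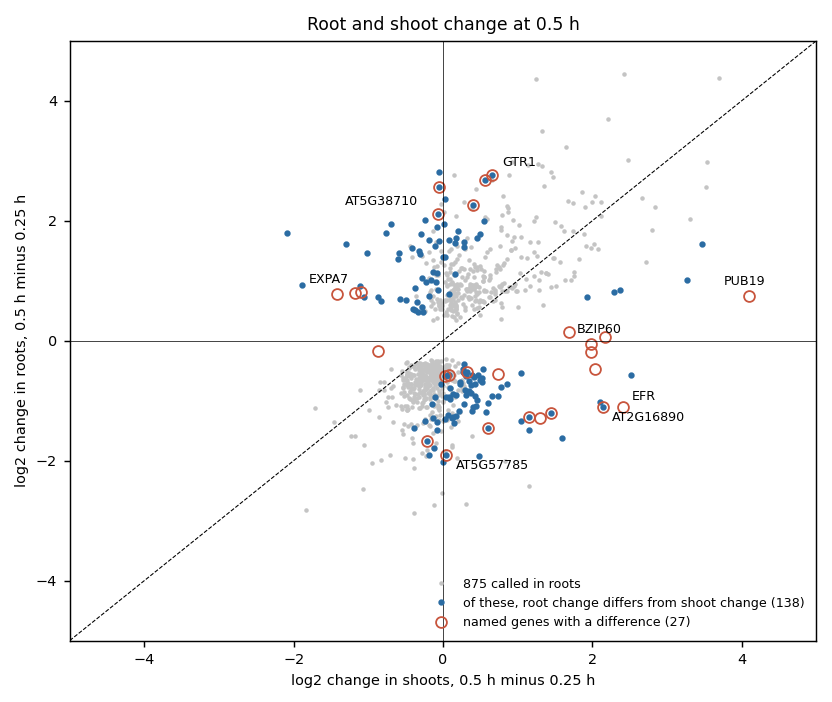
Log2 change from 0.25 h to 0.5 h in roots (vertical axis) against that in shoots (horizontal axis). Grey and blue points are the 875 probe sets called in roots, blue where the root change also differs from the shoot change at an adjusted p under 0.05, and red circles mark the 27 named genes with such a difference. Points on the dashed line changed equally in both tissues, and PUB19 lies far to its right while AT5G38710 and GTR1 lie far above it.

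Root arrays of later times, whose levels did not choose the calls, gave the course of the changes. The median signal of the 388 risen probe sets was 83.8, 202, 175 and 99.4 at 0.25, 0.5, 1 and 3 h and 74.5 at 24 h. The fallen 487 had medians of 118, 68.0, 77.9 and 96.8 at the first 4 of these times and of 101 at 24 h. The medians of both sets lay nearer to their first level at 3 h than at 0.5 h, and the 0.25 h and 0.5 h values are those that chose the sets. In roots, 1 h was also tested against 24 h, on arrays whose levels did not choose the calls. In this test 2193 of 18190 probe sets passed (12.1%), 6.04% higher and 6.01% lower at 1 h. It is not independent of the calls, because the same fit gave the spread for both. Probe sets with a small spread pass more readily in either test. How much this adds to the shares that follow was not tested. Of the 388 risen probe sets, 243 were higher at 1 h than at 24 h (62.6%) and 4 were lower. Of the 487 fallen, 125 were lower (25.7%) and 15 were higher. The comparison of 1 h with 0.25 h shares the 0.25 h arrays with the calls, so its values are not counted here.

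Of the 12 largest rises, 10 were higher at 1 h than at 24 h by this test and none was lower. GTR1 was at 529.7 and 1049 at 1 h and at a mean of 91.1 at 3 h and 91.0 at 24 h, a difference of 3.01 between 1 h and 24 h (adjusted p = 1.95e-05). APS3 was at 165 and 326 at 1 h and at a mean of 77.9 at 3 h and 80.1 at 24 h (1.51, adjusted p = 0.00017). AT5G38710 was at 139 and 184 at 1 h, and came down more slowly, through means of 87.3, 88.2 and 53.0 at 3, 6 and 12 h to 35.9 at 24 h (adjusted p = 6.28e-05). GTR1 and APS3 were thus near their 0.25 h signals at 3 h, and AT5G38710 was still above its own. At 1 h, 11 of the 12 genes were lower on replicate 1 than on replicate 2. The 2 genes that did not pass were AT5G38910, at 92.5 and 41.4 at 1 h (-1.03, adjusted p = 0.285), and AT5G05600 (1.52, adjusted p = 0.0873).

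Of the 12 largest falls, 4 were lower at 1 h than at 24 h and none was higher. AT5G57785 was at 47.0 and 51.3 at 1 h and at a mean of 121 at 24 h (-1.18, adjusted p = 0.00457). AT5G15950 followed another course: it was at 153 and 133 at 1 h, at means of 45.3, 36.8 and 48.1 at 3, 6 and 12 h, and at 243 at 24 h. Its 0.5 h signals were therefore low between 2 times of higher signal. The low oxygen gene AT1G19530 was at 413 and 436 at 1 h, at means of 1325 at 3 h and 958 at 6 h, and at 501 at 24 h (-0.24, adjusted p = 0.756). Its signals at 1 h lay below all those means, and none of the 15 low oxygen genes passed between these times. Of the plastid transcripts, 45 of 69 were higher at 1 h than at 24 h and none was lower. Over all tested genes, 571 of 10017 were higher and 587 were lower. The trait was not particular to plastid transcripts: of the rapid touch list, which had no called rise at 0.5 h, 14 of 23 were higher and none was lower.

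**Figure D5:**
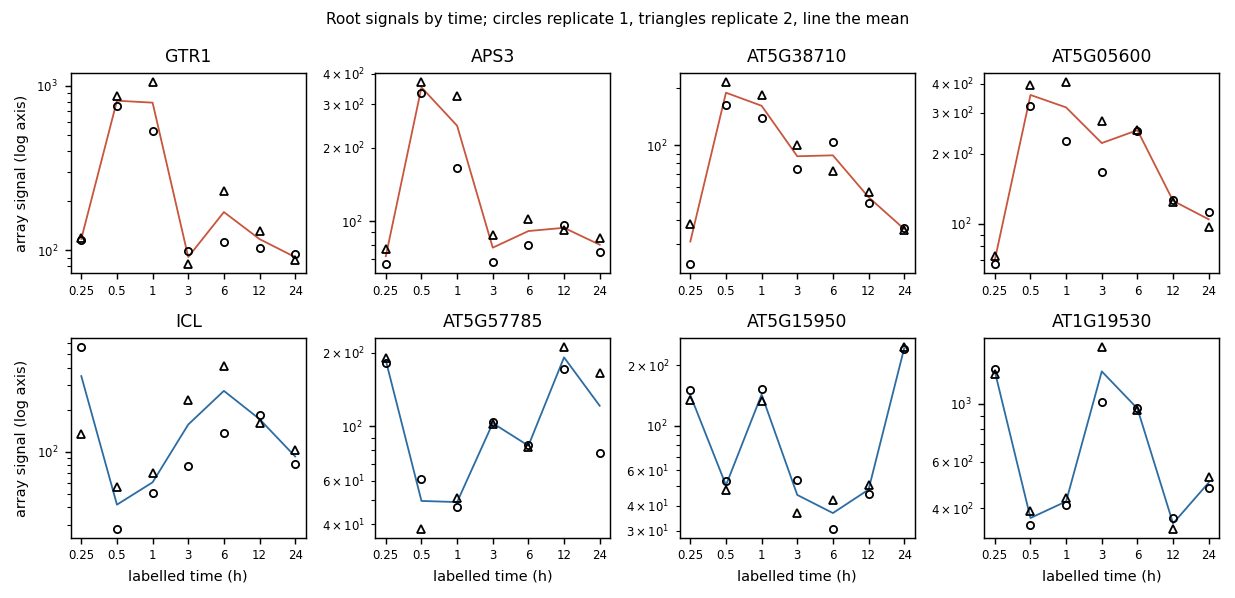
Root array signals (log axis) of 8 genes at the 7 times (horizontal axis, labelled time in h, evenly spaced), with replicate 1 as circles, replicate 2 as triangles and a line through the group means. GTR1, APS3, AT5G38710 and AT5G05600 (top) have their highest mean at 0.5 h, and ICL, AT5G57785, AT5G15950 and AT1G19530 (bottom) drop from 0.25 h to 0.5 h.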

How the data were processed

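The data are deposited signal intensities on a linear scale for 22810 ATH1 probe sets on 28 arrays, made by the authors with MAS5 per the submitters' processing notes (its version is not given in the sources used here). The 2% trimmed mean of the deposited signals was 100.01 on each of the 4 arrays, and scaling of this kind hides any shift common to most transcripts. From these, log2(signal + 1.93) was computed, with the 10th percentile of all values as pseudocount. This understates the change of dim transcripts. The 64 control probe sets were left out, and probe sets above their array's 30th percentile on both arrays of at least 1 group were kept, which removed 4556. limma 3.58.1 in R 4.3.3 estimated a mean for each of the 14 groups (14 residual degrees of freedom, trended prior) and was checked on simulated data. Tests were two-sided, with Benjamini-Hochberg adjustment at 0.05. The number of arrays limits the precision.

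Tissue, time and replicate number were taken from each sample's title. Genes were named from the platform annotation (13513 probe sets with 1 gene, 503 with several, 8730 with none), of which 13436 matched the TAIR10.1 table, used for names and gene order. Of the locus entries on the lists, 92 of 389 had such a probe set. The aquaporin list had none. The organelle list was matched to plastid transcripts only, although probe sets of mitochondrial genes were tested. The members and lists were chosen with earlier results of these data known. Named genes are the 12 largest rises and falls past the test whose arrays do not overlap and whose mean signal reached 50 in the brighter group, the 4 largest differences each way from shoots that passed both tests, called list members (at most 4 a direction) or else the widest ones with values only, and the markers. Other list members were named after their values were seen. Each gene was represented by its brightest probe set. Alternatives changed the pseudocount, filter, normalization, variance prior, array weights, replicate block, arrays in the fit and each array in turn. Where an array was left out, the lone array of that group was assumed to vary like the other groups. The replicate numbers of the 2 root groups were not used to pair arrays in the main fit.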

Additional observations from a re-analysis of the deposited data

Results flagged for a closer look

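A change that differed between roots and shoots at 0.5 h was found for 385 probe sets, and 27 named genes or list members were among them. Values in brackets are the root change minus the shoot change on the log2 scale, each past limma's test of that difference. The root change was lower for EFR (-3.52), PUB19 (-3.35), AT2G16890 (-3.24), AT4G27652 (-2.64), UGT84A3 (-2.59), AT4G27654 (-2.52), AT5G47060 (-2.42), WRKY53 (-2.17) and UGT73B5 (-2.11). It was also lower for AT5G15950 (-2.06), BZIP60 (-2.03), AT5G57785 (-1.94), PUB24 (-1.53), AT3G10190 (-1.45), BIK1 (-1.30), AT2G21230 (-0.85), MYC3 (-0.65) and UGT71C4 (-0.62). The root change was higher for AT5G38710 (2.62), EXPA7 (2.20), AT5G19100 (2.18), AT4G22610 (2.12), GTR1 (2.12), CSLA03 (1.97), SWEET2 (1.91), APS3 (1.87) and EXGT-A3 (0.70). Of the 27 genes, 14 were called in roots and 13 were not.

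The difference passed under every alternative run for 10 of these genes: PUB19, AT2G16890, AT4G27652, AT5G47060, AT5G15950, BZIP60, AT5G57785, PUB24, APS3 and AT5G38710. EXPA7, a root hair expansin and a root marker, did not keep its call: its difference was 1.64 (adjusted p = 0.148) when shoot 0.5 h and 1 h were joined. EFR, a receptor kinase gene, was at 9.04 and 7.50 and then 0.708 and 6.43 in roots and at 1.72 and 2.08 and then 13.6 and 24.7 in shoots, and its difference ran from -5.22 to -1.44 over the alternatives. No group has the 4 arrays that a search for single outlying arrays needs.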

How the results depend on the processing

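Under the alternatives, the 875 probe sets called between root 0.25 h and 0.5 h became 1907 with array weights (768 higher, 1139 lower) and between 135 and 535 with 1 of the 4 arrays left out, fewest without replicate 2 of 0.5 h (135) and replicate 1 of 0.25 h (191), then replicate 1 of 0.5 h (377) and replicate 2 of 0.25 h (535). A left-out array leaves 1 in its group, and the cause was not tested beyond that. The share of rises was 44.3% of calls, and the split turned with the arrays in the fit. It was 724 higher and 566 lower with the 4 arrays alone, and 546 and 547 with the 14 root arrays. Of the 875 calls, only 608 were kept with the 4 arrays alone and 653 with the 14 root arrays. The other alternatives gave 703 to 1094 calls. The 385 differences between tissues became 611 when shoot 0.5 h and 1 h were joined, and 137 to 746 with 1 array left out: 746 without shoot 0.5 h replicate 1, 203 without shoot 0.25 h replicate 2, and 213, 212, 186 and 137 without root 0.25 h replicates 1 and 2 and root 0.5 h replicates 1 and 2. The 2193 calls between 1 h and 24 h became 3382 with array weights and 626 to 1464 with 1 array left out, with 626 without replicate 2 of 1 h, 1029 without replicate 1 and 976 without replicate 2 of 24 h.

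With the replicate number as a block (replicate block), 781, 350 and 2118 probe sets passed in the 3 comparisons. Same-numbered arrays of the 2 root groups did not deviate together across the probe sets as a whole (r = 0.03). This correlation cannot exclude a pairing limited to some transcripts. None of the 54 named genes past the test in roots changed direction, and 6 of the 40 not past it changed sign. In roots the 12 largest rises passed in every alternative for 5 genes and in those that leave no array out for 11, and the 12 largest falls for 5 and 6. Signals near the lower end of the scale limit the values of dim genes such as JRG21 and AT5G62360, and no background level was used here.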

Other observations

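Genes next to each other in the TAIR10.1 annotation were both called in 13 of the 3879 adjacent pairs with both members tested. Both rose in 9 pairs, both fell in 2 and they moved in opposite directions in 2. Of all tested genes 4.46% were called, and the number of pairs to be had from that share alone was not worked out. Nothing is therefore read from the count. Besides the protease pair AT5G19100 and AT5G19110, the pairs that rose were led by AT4G29690 (1.39) with AT4G29700 (1.55), and AT3G61390 (1.45) with AT3G61400 (1.30). UGT78D2 fell together with its neighbour AT5G17040 (-1.83), also a glycosyltransferase gene. These pairs were singled out after their values were seen, and similar neighbouring genes can share signal on an array.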
